A study of Mus musculus with 12 samples.

Results

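Immediate early transcription factors are DNA-binding proteins whose genes are transcribed within minutes of a stimulus, before any new protein has to be made. The 10 genes described here, out of 23337 genes in the count tables, were chosen by name: Fos, Fosb and Fosl2 of the FOS family, Jun and Junb of the JUN family, the related factor Atf3, the zinc finger factors Egr1, Egr2 and Egr3, and the nuclear regulator Ier2. They were measured by RNA-seq in 12 libraries of sorted mouse cardiomyocytes (CMs), 3 in each of 4 groups. The KO mice carried 2 floxed copies of Srf (Srf-flox/flox), and the controls (CTRL) carried 1 (Srf-flox/+). All mice, CTRL included, received AAV9-cTNT-Cre, a virus that expresses Cre from the CM-specific cTNT promoter, and carried a fluorescent reporter that Cre switches on. The neonatal groups were injected at postnatal day 1 and collected at day 14 (P14 CTRL and P14 KO), and the adult groups were injected at day 60 and collected at day 90 (P90 CTRL and P90 KO). The virus was given at a low dose, so the hearts were mosaics and the sorted cells are the reporter-positive fraction. The CTRL cells are therefore also Cre-exposed and are left with 1 working copy of Srf, and the KO fraction can hold cells that kept an unrecombined copy.

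SRF, the serum response factor, binds a DNA element called the CArG box. Together with the ternary complex factors, which are switched on by MAP kinases, it is known for inducing Fos, Egr1 and other early genes, and together with the myocardin family it drives actin and contractile genes. FOS and JUN proteins pair to form AP-1, which binds the letters TGANTCA, and ATF3 is a stress-induced relative that can pair with JUN proteins. The same early genes are also known to be switched on when tissue is digested to single cells. All CMs here were released from the heart by warm collagenase perfusion and then sorted, in CTRL and KO alike, and no library from unperfused tissue was analysed here.

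The upstream sequence is shown because it is where SRF and AP-1 or CRE-type factors would act on these genes. RefSeq windows on GRCm38.p6 (the mm10 build of the counts) were found for 7 of the 10 genes. Egr1, Egr3 and Ier2 had none. Bases are counted back from the annotated start site, and capitals mark a CArG box, a MEF2 box, a CRE core (TGACG on either strand), the Jun-type CRE (TGACATCA), the C/EBP-ATF site (TGATGCAA on either strand) or a TATA box (TATAAA on either strand).
Fos, chr12:85473760-85473889, + strand, -130 to -1: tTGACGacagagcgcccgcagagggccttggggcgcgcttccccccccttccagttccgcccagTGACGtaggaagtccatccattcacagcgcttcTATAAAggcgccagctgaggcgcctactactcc
Jun, chr4:95052223-95052352, - strand, -130 to -1: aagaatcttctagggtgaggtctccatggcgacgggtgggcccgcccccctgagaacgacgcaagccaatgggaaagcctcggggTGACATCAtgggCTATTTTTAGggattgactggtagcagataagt
Junb, chr8:84978749-84978878, - strand, -130 to -1: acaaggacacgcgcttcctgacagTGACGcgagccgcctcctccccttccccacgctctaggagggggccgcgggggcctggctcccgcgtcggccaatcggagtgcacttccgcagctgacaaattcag
Atf3, chr1:191183343-191183463, - strand, -130 to -10: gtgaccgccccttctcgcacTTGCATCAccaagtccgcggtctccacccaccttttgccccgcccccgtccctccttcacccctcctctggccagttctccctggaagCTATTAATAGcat
Srf, chr17:46556182-46556292, - strand, -130 to -20: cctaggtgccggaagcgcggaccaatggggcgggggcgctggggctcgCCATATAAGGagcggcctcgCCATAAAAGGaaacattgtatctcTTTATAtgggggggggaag
Egr2, first match, chr10:67537484-67537513, + strand: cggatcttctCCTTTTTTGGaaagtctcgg
Egr2, second match, chr10:67537787-67537816, + strand: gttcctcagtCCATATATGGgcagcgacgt

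Within the 250 bases upstream, a CArG box was found for 1 of the 7 genes with a window, Egr2, and in 1.47% of all 32851 windows. Egr2 had 5 windows, from different annotated starts, so its share and that of single windows are not alike. Its 2 matches each stood at -72 to -63 from 1 of these starts. Srf itself, which is known to regulate its own gene, had 2 CArG boxes. No full CRE (TGACGTCA, 1.55% of windows) and no AP-1 site (TGANTCA, 6.75%) was found for any of the 7, while a CRE core was found for 5 of them and in 17.8% of windows. The Jun-type CRE stood at -45 to -38 in Jun and occurred in 2.93% of windows. The MEF2 box, an element bound by the muscle factor MEF2, was found in Jun and Atf3 and in 0.508% of windows. The C/EBP-ATF site stood at -110 to -103 in Atf3 and occurred in 0.791% of windows, and the TATA box at -33 to -28 in Fos, against 12.4% of windows. These strings were chosen in part after the windows had been read, a match is not a bound site, and sites outside the window, such as the serum response element of Fos farther upstream, were not covered.

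Srf, the targeted gene, checked the labels. Its level, as CPM (counts divided by library size and scaled by TMM factors), was 56.8 ± 7.26 in P14 CTRL and 23.1 ± 11.8 in P14 KO (SD, n = 3), and 70.5 ± 11 in P90 CTRL and 29.9 ± 2.55 in P90 KO. The groups did not overlap at either stage. The adjusted p was 0.0628 in neonatal KO and 0.00347 in adult KO (edgeR quasi-likelihood test, Benjamini-Hochberg over all genes tested), with drops of similar size on the log2 scale (-1.30 ± 0.36 and -1.23 ± 0.13, SE). Libraries held 9740389 to 23103460 counts, with P90 CTRL replicate 2 the smallest and P90 KO replicate 2 the largest. CM markers such as Myh6 (31800 to 62600 CPM) and Tnnt2 (7840 to 13000 CPM) were high in every library. Nkx2-5, also a CM marker, was at 34.7 to 66.8 CPM. Markers of other cells had lower sums than the CM markers. The sums were 251 to 607 CPM for 10 endothelial and 5.9 to 15.1 CPM for 9 leukocyte markers. For 8 smooth muscle and pericyte markers they were 200 to 1420 CPM, with Acta2 alone at 95.1 to 1330 CPM. In such bulk samples, fewer cells of a type and less RNA per cell cannot be told apart. Counts of Y-linked genes differed between replicates in the P14 CTRL, P14 KO and P90 CTRL groups, so the sexes were mixed there, while no P90 KO library had such counts, and at P90 sex and genotype cannot be fully told apart. The labels do not say what a replicate is, and the study describes its sorted CM samples as separate hearts.

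Both P14 CTRL replicate 2 and P90 KO replicate 2 stood apart on the early genes themselves. P14 CTRL replicate 2 was the lowest of its group for 8 of the 9 genes followed across all libraries (all but Egr3), and P90 KO replicate 2 was the highest of all 12 libraries for 8 of those 9. Values without these libraries are given beside many results of single early genes below. None are given for the medians and counts of the lists of other genes. Within groups, these genes varied more than most genes of like level. The within-group SD on the log2 scale was 0.60 for Fos, 0.49 for Egr1 and 0.75 for Atf3, at the 99.2nd, 99.4th and 100th percentile of 747, 1546 and 1216 genes of like mean level. Fosb, at 0.41 and the 45th percentile of 904 genes, was not among the more variable ones.

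**Figure D1:**
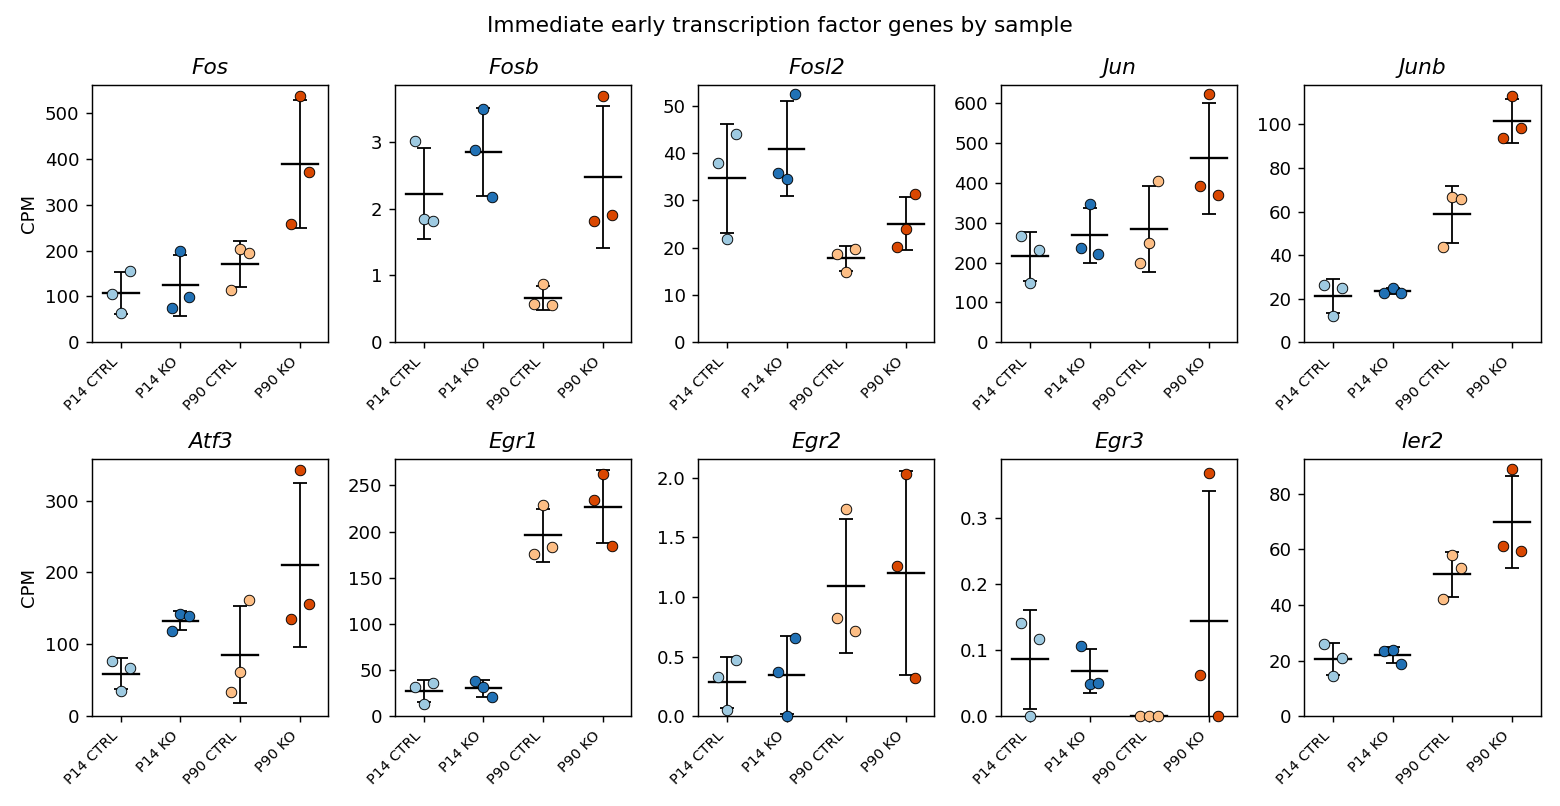
CPM (linear axis from 0) of each of the 10 genes in the 12 libraries, by group; points are libraries, horizontal bars the group mean and error bars the SD, drawn down to 0 at most. Egr1, Junb and Ier2 lie higher in both P90 groups than in both P14 groups, and all 3 P90 KO libraries exceed all 3 P90 CTRL libraries for Fos, Fosb, Fosl2, Junb and Ier2.

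Most of these genes were clearly expressed in sorted CMs of both genotypes and ages. Per kilobase of exon, which allows levels of different genes to be compared, Jun led in P14 CTRL with 67.5 CPM per kb, followed by Fos at 51.6 and Atf3 at 29.9. The ranges of neighbours in that order overlapped, until a gap below Atf3. Ier2 (13.5), Junb (11.5), Egr1 (8.78) and Fosl2 (5.91) formed a second run of overlapping neighbours, and Fosb (0.589) lay below them with no overlap. Egr2 (0.0952) and Egr3 (0.0607) came last. Without division by length they were at 0.282 ± 0.213 and 0.086 ± 0.0754 CPM in P14 CTRL (SD, n = 3). Both were close to the floor of 3 counts, which corresponds to 0.141 to 0.176 CPM in those libraries. Over all 12 libraries that floor runs from 0.138 to 0.326 CPM. In P90 CTRL the order was Jun (89.2), Fos (81.6), Egr1 (63.7), Atf3 (43.3), Ier2 (33.6) and Junb (31.9), each overlapping the next, then Fosl2 (3.03), Egr2 (0.368), Fosb (0.176) and Egr3 (0), none overlapping the next. In P90 KO, Fos came first at 186 CPM per kb, ahead of Jun at 145 and Atf3 at 107, again with overlapping ranges. Egr3 reached at most 8 counts in any library (P90 KO replicate 2) and failed the filter on low counts in every comparison, so no fold is given for it. Egr2 failed that filter in the neonatal comparison, with 7, 1 and 8 counts in P14 CTRL and 7, 0 and 13 in P14 KO. No exon of the 10 genes overlapped an exon of another gene in the tables.

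The first question was whether loss of Srf from birth altered these genes in P14 CMs. Atf3, a stress-induced repressor and activator of the CREB/ATF family, was the only one of the 8 genes tested that passed the threshold, and it was higher in KO. Across all genes 8.59% passed the same test in neonatal KO against CTRL, 3.99% in the upward direction. The other 7 genes had log2 fold changes of 0.10 to 0.35 with overlapping groups. The median over the 8 genes was 0.22, against 0.00 over all 12546 genes tested.

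Atf3 stood at 76.6, 34.4 and 66.5 CPM in P14 CTRL and at 118.2, 141.8 and 139.0 CPM in P14 KO. Every KO library was above every CTRL library, which was the case in the upward direction for 16% of all genes. The gene rose 2.25-fold, a log2 fold change of 1.17 ± 0.26 (SE, 95% interval 0.58 to 1.76) with an adjusted p of 0.0302 by edgeR. DESeq2 gave 1.16 with an adjusted p of 0.000185. Without P14 CTRL replicate 2, its lowest library, the value was 0.89 with an adjusted p of 0.0127. The call was lost when any 1 KO library was left out (adjusted p 0.0843 to 0.114) and when the spread was estimated from all 12 libraries (0.121), and over all alternatives the adjusted p ran from 0.000185 to 0.121.

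The FOS family did not separate at P14. Fos, the founding AP-1 subunit, was at 104.9, 64.4 and 154.6 CPM in P14 CTRL and at 75.4, 199.5 and 98.5 CPM in P14 KO. The 2 groups were interleaved, and the log2 fold change was 0.20 ± 0.39 (95% interval -0.70 to 1.10, adjusted p = 0.812 by edgeR). Fosb, whose protein has a long and a truncated splice form, was at 2.22 ± 0.677 and 2.85 ± 0.661 CPM (SD, n = 3). Fosl2, which encodes FRA-2, was at 34.6 ± 11.5 and 40.9 ± 10.1 CPM.

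Jun, the gene with the highest level per kb at P14, was at 215.2 ± 61.3 CPM in P14 CTRL and 267.9 ± 68.4 CPM in P14 KO (SD, n = 3), with a log2 fold change of 0.31 ± 0.24 and an adjusted p of 0.468 by edgeR. Junb, which can oppose JUN at AP-1 sites, was at 21.1 ± 7.88 and 23.4 ± 1.34 CPM. Egr1, a well known direct target of SRF, was at 32.0, 13.1 and 35.9 CPM in P14 CTRL and at 38.1, 31.8 and 20.2 CPM in P14 KO. Its groups overlapped, and the interval of its log2 fold change ran from -0.68 to 0.98. Ier2 was at 20.5 ± 5.75 and 21.9 ± 2.78 CPM. Without P14 CTRL replicate 2, the log2 fold changes of Fos, Junb, Egr1 and Ier2 were -0.06, -0.14, -0.18 and -0.10, those of Fosb, Fosl2 and Jun were 0.23, 0 and 0.10, and none of these 7 passed the edgeR test.

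In adult CMs every one of the 9 genes tested had a positive log2 fold change in KO against CTRL. So did 6027 of all 11808 genes tested. None of the 9 passed the edgeR threshold. The test called few genes of any kind here, 0.39% of 11808. At an unadjusted p under 0.05, 7 of the 9 passed (Fos, Fosb, Fosl2, Jun, Junb, Ier2 and Atf3), against 16.2% of all genes, and DESeq2, which gave no adjusted p for Egr2, called 2 of the other 8, Fosb and Junb, against 2.87% of its genes. The members were chosen with results known, so these shares are descriptions. Without the filter on low counts edgeR called those 7, against 3.6% of genes. The median log2 fold change over the 9 was 0.70, against 0.01 over all genes. All 3 KO libraries exceeded all 3 CTRL libraries for 5 of the 9 (Fos, Fosb, Fosl2, Junb and Ier2), against 10.3% of all genes in the upward direction.

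Fos was at 113.3, 204.3 and 194.9 CPM in P90 CTRL and at 259.1, 537.7 and 372.3 CPM in P90 KO. No KO library fell within the CTRL range. The fold was 2.29, a log2 fold change of 1.20 ± 0.26 (95% interval 0.63 to 1.77) with an adjusted p of 0.074 by edgeR and 0.0564 by DESeq2. Leaving out P90 KO replicate 2, the highest library, gave 0.90 with an adjusted p of 0.262, and leaving out P90 KO replicate 1, the lowest of the KO libraries, gave 1.42 and brought the adjusted p to 0.0449. Over all alternatives the adjusted p of Fos ran from 6.84e-23, without the filter, to 0.262.

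Fosb had the largest fold of the 9. It stood at 0.567, 0.870 and 0.554 CPM in P90 CTRL, which are 11, 8 and 7 counts, and at 1.82, 3.69 and 1.91 CPM in P90 KO, which are 29, 80 and 24 counts. The groups did not overlap, and the log2 fold change was 1.97 ± 0.40 (95% interval 1.09 to 2.86) with an adjusted p of 0.062 by edgeR and 0.0114 by DESeq2. Without P90 KO replicate 2 it was 1.53 with an adjusted p of 0.293, and over all alternatives the adjusted p ran from 5.08e-05 to 0.293. Fosl2 went from 17.7 ± 2.62 to 25.1 ± 5.65 CPM, a log2 fold change of 0.49 ± 0.17 with an adjusted p of 0.207, and 0.53 without P90 KO replicate 2.

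Junb was at 43.6, 66.7 and 65.8 CPM in P90 CTRL and at 93.8, 113.1 and 98.4 CPM in P90 KO. Its 3 KO libraries lay close together and well above the CTRL libraries. The log2 fold change was 0.81 ± 0.15 (95% interval 0.47 to 1.15), with an adjusted p of 0.0554 by edgeR and 0.000196 by DESeq2, and it was 0.73 without P90 KO replicate 2. Its adjusted p ran from 9.11e-10 to 0.226 over all alternatives. Jun was at 199.0, 247.9 and 405.6 CPM in P90 CTRL and at 392.7, 621.7 and 369.5 CPM in P90 KO. The third CTRL library lay inside the KO range, and the log2 fold change of 0.70 ± 0.25 had an adjusted p of 0.212. It was 0.43 without P90 KO replicate 2.

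Atf3 at P90 was spread widely within CTRL, at 33.2, 62.0 and 161.6 CPM, and was at 135.0, 342.1 and 155.5 CPM in P90 KO. The highest CTRL library exceeded 2 of the KO libraries. The log2 fold change was 1.31 ± 0.49 (95% interval 0.23 to 2.39) with an adjusted p of 0.229 by edgeR and 0.424 by DESeq2. It ran from 0.77 without P90 KO replicate 2 to 2.17 without P90 CTRL replicate 3.

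Egr1 was at 176.1, 228.3 and 182.8 CPM in P90 CTRL and at 234.6, 261.9 and 184.1 CPM in P90 KO. The ranges overlapped, and the log2 fold change of 0.22 ± 0.14 had a 95% interval of -0.09 to 0.53 and an adjusted p of 0.471, and was 0.11 without P90 KO replicate 2. Egr2 was at 16, 16 and 9 counts in P90 CTRL and at 20, 44 and 4 counts in P90 KO, and its log2 fold change of 0.31 ± 0.55 became -0.32 without P90 KO replicate 2. Egr3 had 0 counts in each P90 CTRL library, which allows up to 0.155 to 0.326 CPM at 3 counts, and 1, 8 and 0 counts in P90 KO. Ier2 went from 51.1 ± 8.09 to 69.8 ± 16.6 CPM, a log2 fold change of 0.46 ± 0.17 with an adjusted p of 0.213, and 0.25 without P90 KO replicate 2. Without P90 KO replicate 2, edgeR called none of the 9 genes. The number that did not overlap in the upward direction was then 5, against 13% of all genes. That number could not have dropped, because leaving out a library cannot make separate groups overlap.

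**Figure D2:**
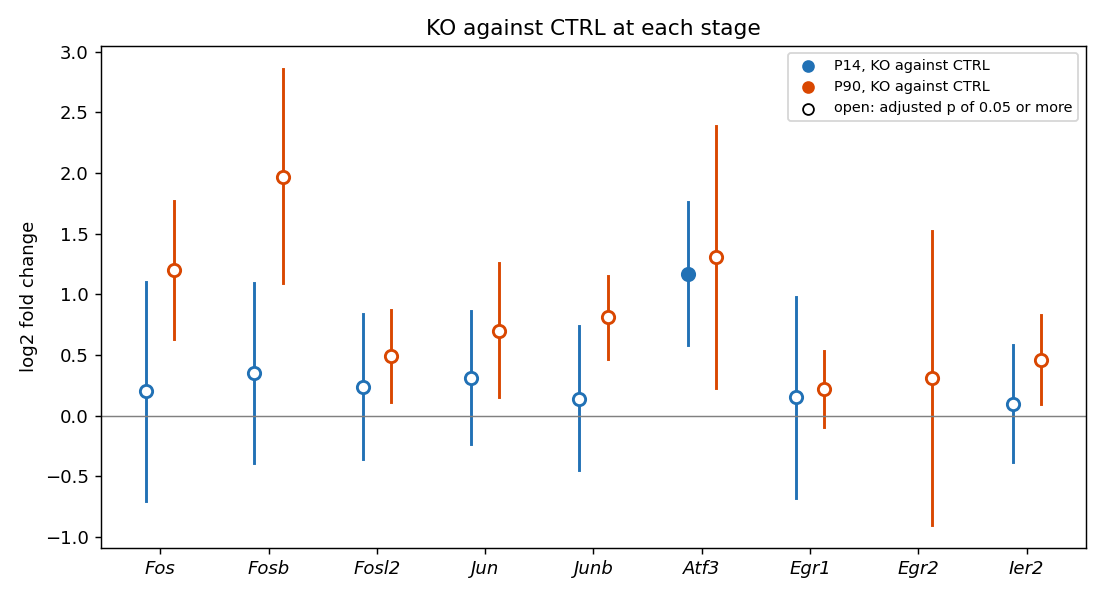
Log2 fold change of KO against CTRL (y axis) for each gene at P14 and at P90; points are edgeR estimates, lines 95% intervals, and filled points have an adjusted p under 0.05. Only Atf3 at P14 is filled; at P90 all 9 points are above 0 and the highest is Fosb at 1.97.

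Whether the neonatal and adult KO effects differed was tested by an interaction over all 12 libraries. None of the 9 genes passed by edgeR, where 1.78% of all genes did, and of the 7 to which DESeq2 gave an adjusted p none passed, where 8.78% of its genes did. It gave none for Fosb and Egr2. At an unadjusted p under 0.05, which 19% of all genes met, only Fosb passed, with a neonatal minus adult effect of -1.60 ± 0.52 on the log2 scale (95% interval -2.73 to -0.47, adjusted p = 0.123 by edgeR). For Fos the difference was -0.99 ± 0.54 with an adjusted p of 0.358, and for Junb -0.65 ± 0.33 with 0.311. Without P90 KO replicate 2 these were -0.67 and -0.56, and that of Fosb was -1.16. For Atf3 it was -0.14 ± 0.68, with an interval of -1.59 to 1.32, and 0.41 without P90 KO replicate 2. A difference between stages was therefore neither shown nor bounded closely for this gene.

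Related genes were followed in the same fits. Of 14 AP-1 and EGR relatives, 9 were tested in each KO comparison. At P14, where edgeR called 3.99% of all genes higher and 8.59% in either direction, 3 of them rose in KO and none fell. These were Mafk at 0.98 ± 0.12 and Mafg at 0.48 ± 0.11, small MAF proteins that pair with other bZIP factors, and Jund, the JUN family member that is constitutively expressed in most cells, at 0.72 ± 0.16 (log2 fold changes, adjusted p = 0.00708, 0.034 and 0.0345 by edgeR). At P90 edgeR called none of the 9, with 3 at an unadjusted p under 0.05 and 1 by DESeq2, against 16.2% and 2.87% of all genes. For 4 of the 9 the groups did not overlap in the upward direction, against 10.3% of all genes, and for none in the downward direction. Jund went from 67.6 ± 14.4 to 114 ± 30.4 CPM with an adjusted p of 0.112 by edgeR.

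A list of 42 other early response genes, which are not members of these families, gave 6 higher and 1 lower of 39 tested in neonatal KO. Over all genes edgeR called 3.99% higher and 8.59% in either direction. Myc, the growth-linked bHLH factor, rose from 3.16 ± 1.28 to 10.6 ± 1.34 CPM, a log2 fold change of 1.75 ± 0.31 with an adjusted p of 0.0173 by edgeR. Trib1, Rhob and Zfp36l1 rose by 0.70 to 0.87 on the log2 scale. Dusp5, a phosphatase that acts on ERK, fell by 0.95 on the log2 scale (adjusted p = 0.0139). Dusp6, of the same family, went the other way, at 0.75 (adjusted p = 0.0414 by edgeR). Klf6 was also called higher, at 0.82 (adjusted p = 0.0396 by edgeR). In adult KO, 36 of the 40 tested had positive log2 fold changes, against 6027 of all 11808 genes tested. The median of the 40 was 0.66, close to the 0.70 of the 9 transcription factors. For 20 the groups did not overlap in the upward direction, against 10.3% of all genes. Of these 40, edgeR called Klf2, a shear-responsive zinc finger factor, from 16.2 ± 0.803 to 32.4 ± 4.04 CPM (adjusted p = 0.00755). DESeq2 called 11, all higher, against 2.87% of all its genes in either direction. Of these 40, the interaction called Klf2 and Dusp5, against 1.78% of all genes by edgeR. Both had a lower neonatal than adult effect, at -0.99 ± 0.23 and -1.70 ± 0.26.

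Among 21 SRF cofactors and upstream kinases, 3 rose and 1 fell in neonatal KO, where 8.59% of all genes were called. Myocd, the cardiac SRF coactivator, was at 0.86 ± 0.14 and Mapk14, which encodes p38 alpha, at -0.46 ± 0.10. In adult KO edgeR called none of the 21, with 3 at an unadjusted p under 0.05 and 1 by DESeq2, against 16.2% and 2.87% of all genes. For the actin-linked SRF targets more genes fell than rose. Of 24 tested in neonatal KO, 5 fell and 3 rose, and of 23 tested in adult KO, 3 fell and none rose. Over all genes edgeR called 8.59% and 0.39% in either direction. Actc1, cardiac alpha-actin, fell at both stages, by 1.39 on the log2 scale at P14 (adjusted p = 0.0168) and by 0.79 on the log2 scale at P90 (adjusted p = 0.0494). The medians of this list were -0.25 and -0.20, against 0.22 and 0.70 for the immediate early factors.

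**Figure D3:**
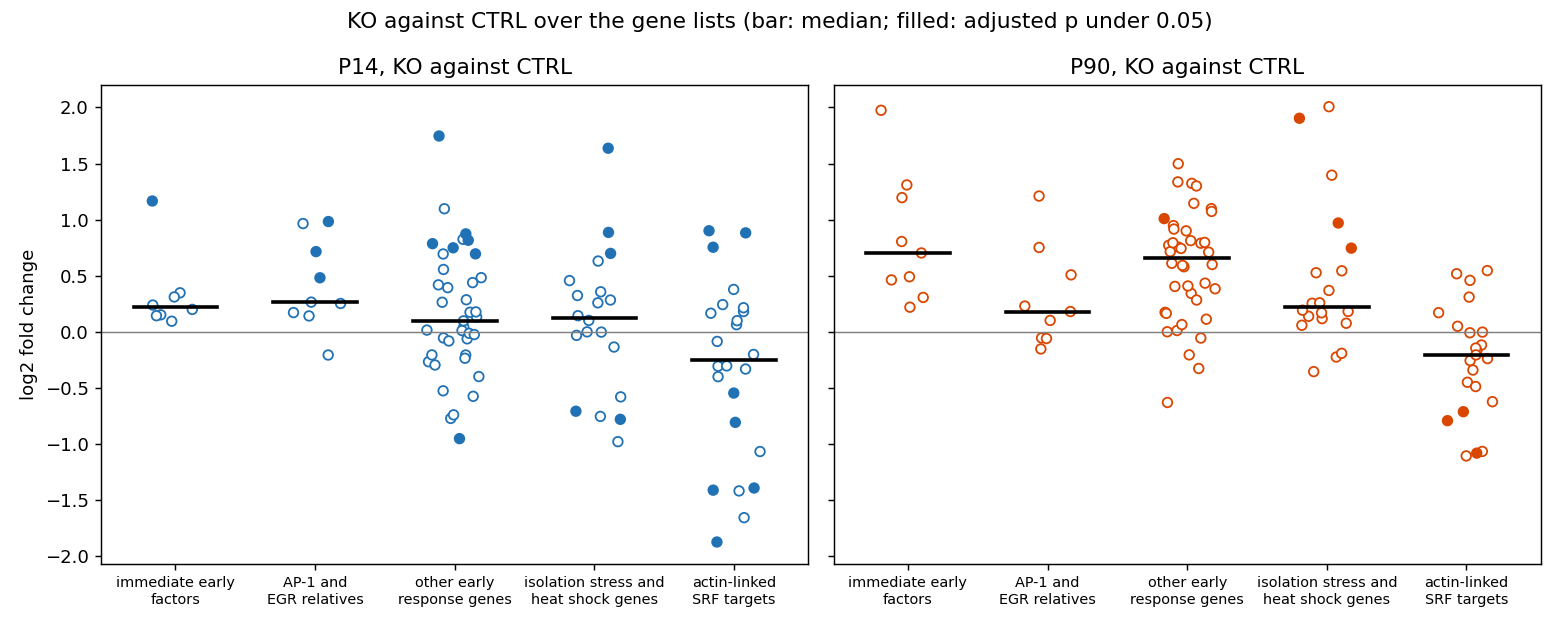
Log2 fold change of KO against CTRL for each tested gene of 5 lists, at P14 (left) and P90 (right); bars are list medians and filled points have an adjusted p under 0.05. At P90 the immediate early factors and the other early response genes have medians of 0.70 and 0.66, and the actin-linked targets -0.20.

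Genes linked to heat shock and to cell isolation were followed because they respond to the same handling of the cells. In adult KO, where edgeR called 0.39% of all genes, 3 of the 20 tested rose and none fell. Positive log2 fold changes were found for 17 of the 20, with a median of 0.22, against 6027 of all 11808 genes tested. Hspa1b, an inducible HSP70 gene, was at 14.6, 6.96 and 11.1 CPM in P90 CTRL and at 52.8, 49.8 and 22.0 CPM in P90 KO, a log2 fold change of 1.90 ± 0.32 with an adjusted p of 0.0374 by edgeR. Hspa1a, its near-identical neighbour with which it can share reads, was at 19.3, 5.33 and 20.2 CPM and at 74.8, 79.1 and 30.2 CPM. Nfkbia, which encodes the NF-kappaB inhibitor, rose by 0.97 ± 0.15 and Hsp90aa1 by 0.75 ± 0.13 on the log2 scale. The 23 genes of the list summed to 2800 to 3460 CPM in P90 CTRL and 3430 to 3720 CPM in P90 KO, which overlap slightly. Their mean log2 CPM, in which each gene weighs the same, ran from 4.82 to 4.99 across P90 CTRL libraries and from 5.15 to 5.55 across P90 KO libraries, with no overlap, and 9 of the 20 tested did not overlap in the upward direction, against 10.3% of all genes.

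In neonatal KO, 3 of the 20 rose (Hsp90aa1, Hmox1 and Ppp1r15a) and 2 fell (Hspd1 and Hspe1, a mitochondrial chaperone pair). Over all genes edgeR called 3.99% higher and 8.59% in either direction. The summed level was 1790 to 2390 CPM in P14 CTRL and 1990 to 2200 CPM in P14 KO. Hspa1a stayed between 1.46 and 7.71 CPM in all 6 P14 libraries. The part of heat shock and isolation in the early gene values of either stage was not tested. P14 CTRL replicate 2, the library lowest in early genes, had the highest Hspa1b of the P14 libraries at 6.90 CPM and the highest Mt1, a metallothionein gene, of all 12 libraries at 253 CPM. It also had the lowest sums of fibroblast markers, at 117 CPM against 196 to 349 CPM in the other P14 libraries, and of endothelial markers, at 290 CPM against 335 to 607 CPM. The part of these in its early gene levels was not tested. P90 KO replicate 2, the library highest in early genes, had the highest heat shock and isolation sum of all 12 libraries, at 3720 CPM. Its mean log2 CPM of that list was also the highest, at 5.55. P90 KO replicate 1 came next, at 3630 CPM and 5.37. The part of this in the early gene levels of P90 KO replicate 2 was not tested.

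Markers of other cell types were followed in the same fits. Over all genes edgeR called 8.59% in neonatal KO and 0.39% in adult KO. In adult KO 16.2% had an unadjusted p under 0.05, and DESeq2 called 2.87%. Positive log2 fold changes were found for 6292 of 12546 genes in neonatal KO and 6027 of 11808 in adult KO. No endothelial marker of 10 passed in neonatal KO, by edgeR, by DESeq2 or at an unadjusted p under 0.05, and the sums were 290 to 607 CPM in CTRL and 335 to 521 CPM in KO. In adult KO none passed by edgeR or DESeq2, 2 did at an unadjusted p under 0.05, 8 of the 10 were positive with a median of 0.24, and the sums were 251 to 323 and 254 to 380 CPM. There, 3 of the 10 did not overlap in the upward direction, against 10.3% of all genes, and none in the downward direction. Fibroblast markers summed to 117 to 326 CPM in P14 CTRL, 196 to 349 CPM in P14 KO, 52.1 to 73.4 CPM in P90 CTRL and 53.1 to 72.5 CPM in P90 KO. No fibroblast marker of 7 tested passed at either stage, also not at an unadjusted p under 0.05 or by DESeq2. Leukocyte markers summed to 5.9 to 9.89 CPM in P14 CTRL, 9.2 to 13.8 CPM in P14 KO, 7.22 to 15.1 CPM in P90 CTRL and 10.4 to 12.8 CPM in P90 KO. EdgeR and DESeq2 called none at either stage, with 1 of 6 at an unadjusted p under 0.05 at P14 and 0 of 5 at P90. At P14 all 6 tested were positive with a median of 0.57, and 3 did not overlap in the upward direction, against 16% of all genes. At P90, 3 of the 5 were positive with a median of 0.02. Of 8 smooth muscle and pericyte markers, Acta2 fell and Cspg4 rose in neonatal KO, and in adult KO edgeR and DESeq2 called none, with 2 at an unadjusted p under 0.05. Their sums were 955 to 1420 CPM in P14 CTRL and 383 to 595 CPM in P14 KO. At P90 the sums were 276 to 420 CPM in CTRL and 200 to 210 CPM in KO. Of 8 CM markers Myh6 fell in neonatal KO, and in adult KO edgeR called none, with 4 at an unadjusted p under 0.05 and 2 by DESeq2. In adult KO 3 of these 8 did not overlap in the upward and 2 in the downward direction, against 10.3% and 11.2% of all genes. Erythroid markers summed to at most 2.39 CPM in any library. The part of these cells in the early gene levels was not tested.

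Age was compared within each genotype. The 2 ages come in separate count tables, and day of injection and time since injection also differ, so these cannot be told apart from age. In CTRL, Egr1, Junb and Ier2 were higher and Fosb and Fosl2 lower at P90 than at P14, which makes 5 of 9 tested, 3 up and 2 down, against 29.3% of all genes (14.5% up and 14.9% down). All P90 CTRL libraries exceeded all P14 CTRL libraries for 4 of the 9 (Junb, Egr1, Egr2 and Ier2), against 22.1% of all genes. In KO, Fos, Jun, Junb, Egr1 and Ier2 were higher and Fosl2 lower, 6 of 9, against 56.8% of all genes (27.7% up and 29.1% down). The KO count is close to that background.

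Egr1 had the largest age difference of the 9 in both genotypes. It was at 27.0 ± 12.2 CPM in P14 CTRL and 195.7 ± 28.4 CPM in P90 CTRL, and at 30.0 ± 9.12 and 226.9 ± 39.5 CPM in the KO groups (SD, n = 3). The 6 P90 libraries, at 176.1 to 261.9 CPM, all lay above the 6 P14 libraries, at 13.1 to 38.1 CPM. The rise was 7.25-fold in CTRL, a log2 fold change of 2.86 ± 0.33 (adjusted p = 0.000533 by edgeR), and 7.58-fold in KO, at 2.92 ± 0.22 (adjusted p = 1.09e-05). In CTRL it was 2.51 without P14 CTRL replicate 2.

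Junb and Ier2 followed the same direction in both genotypes. Junb rose by 1.47 ± 0.29 in CTRL and by 2.13 ± 0.10 in KO, and Ier2 by 1.31 ± 0.22 and 1.68 ± 0.17 on the log2 scale (adjusted p = 0.00623, 1.21e-06, 0.00288 and 4.6e-05 by edgeR). All 4 calls held with any 1 library left out. Without P14 CTRL replicate 2 the CTRL values were 1.17 for Junb and 1.1 for Ier2. Without P90 KO replicate 2 the KO values were 2.06 and 1.48. Fos rose with age in KO at 1.65 ± 0.36 (adjusted p = 0.00354 by edgeR; 1.37 without P90 KO replicate 2), while in CTRL its value was 0.66 ± 0.32 with overlapping groups (adjusted p = 0.146) and 0.38 without P14 CTRL replicate 2. Jun rose in KO at 0.79 ± 0.22 (adjusted p = 0.0132), and by 0.53 without P90 KO replicate 2 (adjusted p = 0.044), and in CTRL its value was 0.40 ± 0.29 (adjusted p = 0.318). The difference between genotypes in the age effect is the interaction given above, which neither Fos nor Jun passed.

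Fosb and Fosl2 were the 2 genes with negative values in both genotypes. Fosb fell from 2.22 ± 0.677 to 0.664 ± 0.179 CPM in CTRL, a log2 fold change of -1.78 ± 0.40 with an adjusted p of 0.0103 by edgeR, and lost the call without P90 CTRL replicate 1 or replicate 3 (adjusted p up to 0.0599, and 0.00393 to 0.0599 over all alternatives). In KO it was at 2.85 ± 0.661 and 2.47 ± 1.06 CPM, with a log2 fold change of -0.17 ± 0.33 and an adjusted p of 0.682. Fosl2 fell by 0.96 on the log2 scale in CTRL (SE 0.25, adjusted p = 0.0206) and by 0.70 on the log2 scale in KO (SE 0.20, adjusted p = 0.0128). In CTRL its call was lost without P14 CTRL replicate 1 or 3 or any 1 P90 CTRL library, and in KO without P90 KO replicate 1 or 2. Without P14 CTRL replicate 2 the CTRL value was -1.22. Egr2 was higher at P90 in every CTRL library, at 9 to 16 counts against 1 to 8. Its log2 fold change was 1.89 ± 0.66 with an adjusted p of 0.0601 by edgeR, and 1.38 without P14 CTRL replicate 2.

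**Figure D4:**
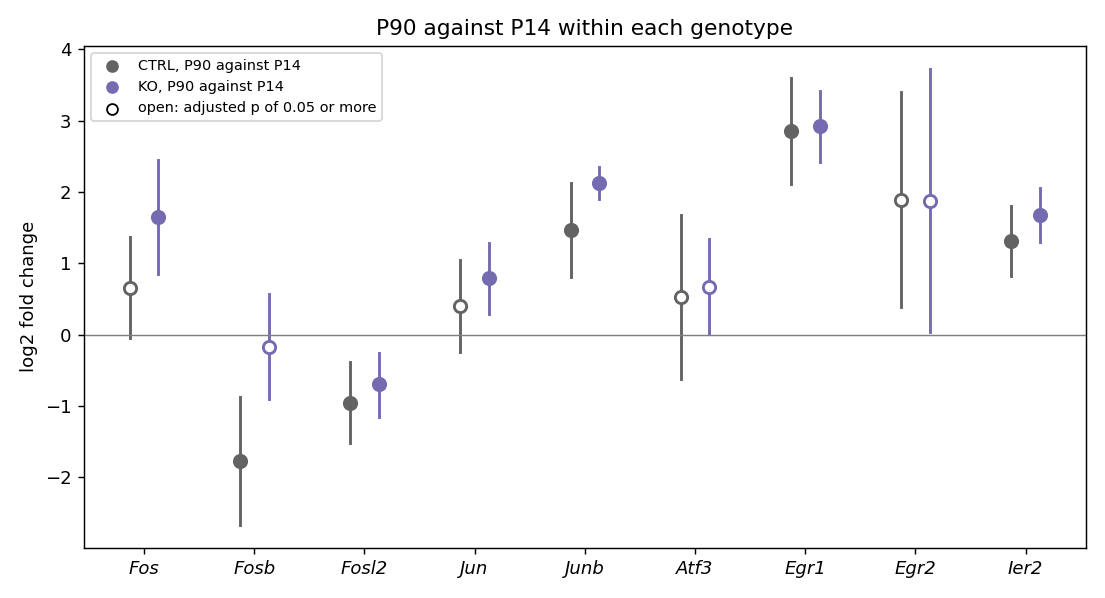
Log2 fold change of P90 against P14 (y axis) for each gene within CTRL and within KO; points are edgeR estimates, lines 95% intervals, and filled points have an adjusted p under 0.05. Egr1 lies near 2.9 in both genotypes (2.86 and 2.92), and Fosl2 is below 0 in both (-0.96 and -0.70).

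The other lists changed with age as well. In CTRL, 6 of 20 heat shock and isolation genes were higher at P90 and 1 was lower, with Hspa1a at 2.61 ± 1.65 and 14.9 ± 8.33 CPM, and in KO 13 were higher and 2 lower. Over all genes 14.5% were higher and 14.9% lower in CTRL, and 27.7% and 29.1% in KO. Of the 40 other early response genes, 3 were higher and 12 lower in CTRL, and 11 were higher and 10 lower in KO. Arc, an activity-regulated cytoskeletal gene, was among the higher ones, from 0.179 ± 0.102 to 6.88 ± 1.08 CPM, and Per1, a clock gene, among the lower ones, from 28.9 ± 7.19 to 7.49 ± 1.96 CPM. Endothelial markers fell for 7 of 10 and fibroblast markers for 5 of 7 in CTRL, and for 6 of 10 and 4 of 7 in KO. The part of isolation or of other cells in the age differences of the early genes was not tested.

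The within-group deviations of Fos were used to describe which genes followed it from library to library. Over 12 libraries, with each group centred on its own mean of log2 CPM, the Pearson correlation with Fos was 0.761 for Jun, 0.727 for Junb, 0.653 for Ier2 and 0.649 for Atf3. It was 0.508 for Fosb, 0.485 for Egr1, 0.306 for Fosl2 and -0.009 for Egr2, which has few counts. Among the 12840 other genes, Jun ranked 74 and Junb 126. The 5 genes outside the list with the highest values were Lonrf3 (0.912), Rnf145 (0.899), Vgll4 (0.896), Otud1 (0.893) and Rassf9 (0.891). Otud1, a deubiquitinase gene, was at 60.9 to 151 CPM in P14 CTRL and 155 to 311 CPM in P14 KO. At P90 it was at 45 to 123 CPM in CTRL and 110 to 259 CPM in KO. Its highest group was thus P14 KO, unlike that of Fos. Lonrf3 stayed at or below 1.11 CPM in all 12 libraries. These values are a description over libraries that share their handling.

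**Figure D5:**
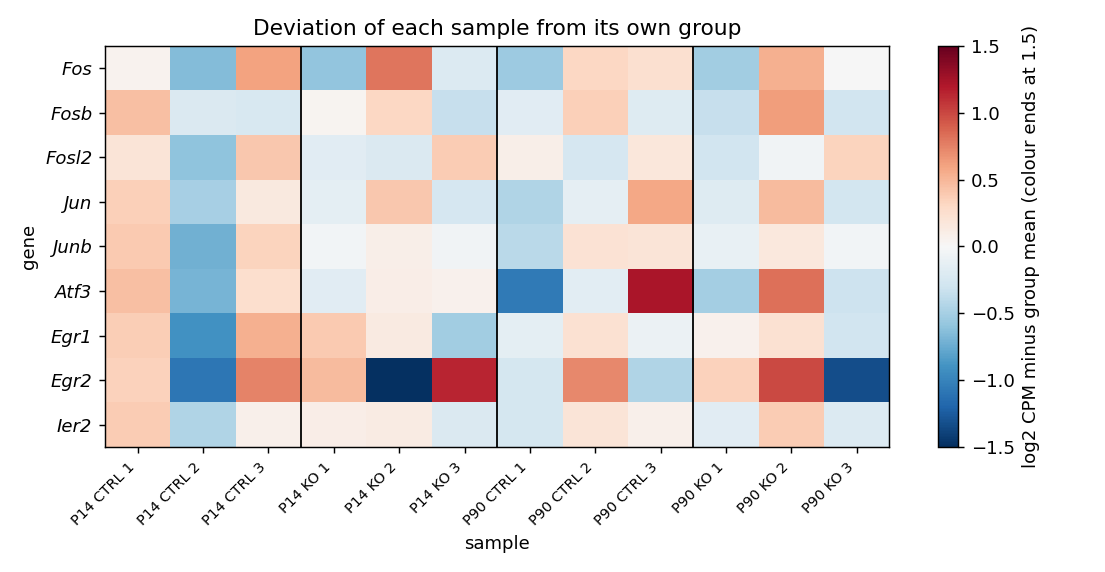
Log2 CPM of each gene in each library minus the mean of its group (colour, ending at 1.5 in either direction), for the 9 genes other than Egr3. P14 CTRL replicate 2 is below its group mean for all 9 genes, by 0.65 on average, and P90 KO replicate 2 is above its group mean by 0.46 on average.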

How the data were processed

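The authors deposited raw read counts per gene in 2 tables, 1 for each age. Per the labels, 10 ng of RNA from sorted CMs was amplified by 8 PCR cycles with SMART-Seq v4 and made into libraries with Nextera XT, and the submitters' processing notes name CASAVA 1.8, STAR 2.5.3a, featureCounts from Subread 1.5.2 and the build mm10. The annotation and the strand setting were not given in the sources used here. The deposited counts hold no molecular identifiers, so PCR copies are counted, and floors cover counting error only. The edgeR test gives no SE. Each SE was derived as the absolute log2 fold change divided by the square root of the F statistic. The 95% intervals used that SE with a t quantile and include the spread between libraries.

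Counts were tested with edgeR 4.0.16 (R 4.3.3): filterByExpr, TMM factors, the quasi-likelihood fit and test, and Benjamini-Hochberg adjustment over all genes tested, with a threshold of 0.05. Each 2-group comparison used its own 6 libraries, and the interaction all 12. The study's methods used DESeq2, which was run as an alternative (version 1.42.0). Levels are CPM with TMM factors over all 12 libraries, log2 CPM used a prior count of 2, and CPM per kb divides by the summed exon length in the deposited tables. Percent called is the share of all tested genes that met the same rule. The scripts were tested on simulated data. The alternatives were DESeq2, RLE size factors, total counts, no filter, a replicate block, a robust fit, a fit of all 12 libraries, a sex term, and leaving out each library. The sex term was used only in the neonatal comparison and in the interaction. The interaction includes the P90 KO group, where no library had Y-linked counts.

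The members and gene lists were chosen with earlier results of these data known. All 10 members and Srf are named; from each other list, up to 5 called genes with the smallest adjusted p per comparison were eligible, or, where none was called, up to 2 with the largest change as values. Klf6 and Dusp6, both called in neonatal KO, are named in addition. Genes most like Fos are the 5 with the highest correlation of within-group deviations. Upstream sequences are RefSeq's on GRCm38.p6. In the tables, 25 gene names had been turned into dates and were kept under those names. Figures used matplotlib 3.10.9.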

Additional observations from a re-analysis of the deposited data

How the results depend on the processing

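The counts of members called held under most alternatives in the neonatal, interaction and age comparisons. In neonatal KO the count was 1 except 0 in the fit of all 12 libraries and 0 to 1 with 1 library left out, while all genes called numbered 1078, and 1787 by DESeq2, 1724 by total counts (81.5% of them higher, against 46.5%), 2088 in the fit of all 12 and 111 to 1004 with 1 library left out. In adult KO the count of members was 0, and 2 by DESeq2, 7 without the filter, 1 in the robust fit and 0 to 1 with 1 library left out, with 46 genes called in all, and 312, 701, 72, 3 in the fit of all 12 and 6 to 51 with 1 library left out. The interaction called no member under any setting, with 228 genes in all, 894 by DESeq2, 474 without the filter, 86 with a sex term and 4 to 377 with 1 library left out. Members called ran from 3 to 5 in CTRL and 5 to 8 in KO with age, and all genes from 2067 to 4768 and 5929 to 6662, with 1 library left out. Members that did not overlap and were higher, an alternative chosen after seeing the data, were also counted with 1 library left out. They numbered 1 to 2 in neonatal KO and 5 to 7 in adult KO, against 16% to 23% and 10.3% to 19.1% of all genes. With age they numbered 4 to 5 in CTRL and 5 to 6 in KO, against 22.1% to 31.5% and 31.1% to 34.5%. Leaving out a library cannot lower this count, so these ranges do not show how stable it is. Total counts moved the median of all genes by 0.215 in neonatal KO, 0.031 in adult KO, 0.176 in the interaction, -0.113 in CTRL with age and -0.293 in KO with age, turned the interaction values of Egr1 to 0.10 and Atf3 to 0.04, and brought the share of calls that were higher to 76.8%, 35.7% and 26.5% in the last 3, against 46.1%, 49.3% and 48.7%. A sex term turned the interaction value of Egr2 to -0.11.

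With 1 library left out, log2 fold changes that changed sign ran, in neonatal KO, from -0.30 to 0.55 for Fos, 0 to 0.45 for Fosl2, -0.14 to 0.33 for Junb, -0.18 to 0.41 for Egr1 and -0.10 to 0.30 for Ier2. They ran from -0.32 to 0.71 for Egr2 in adult KO, and in the interaction from -0.38 to 0.21 for Egr1, -0.87 to 0.68 for Egr2 and -0.98 to 0.41 for Atf3. With age they ran from -0.31 to 0.92 for Atf3 in CTRL and -0.59 to 0.02 for Fosb in KO. Of 631 values of single members under an alternative, 560 kept direction and side of the threshold, 14 lost the call, 28 gained it and 29 turned. The cause was not tested. Fosb, Egr2 and Egr3 have the fewest counts, and their values are the least precise.

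Replicate numbers are shared between groups, but the labels do not say what a replicate is, and the numbers were not taken as pairs. The deviations of same-numbered CTRL and KO libraries correlated at 0.047, 0.148 and 0.36 at P14 and 0.181, 0 and 0.054 at P90. Those of different-numbered libraries ran from -0.241 to 0.151 at P14 and from -0.253 to 0.173 at P90. These values do not settle whether the libraries were paired. With a replicate block, members called were 1 in neonatal KO, 7 in adult KO (Fos, Fosb, Fosl2, Jun, Junb, Ier2 and Atf3), 0 in the interaction, 5 in CTRL with age and 7 in KO with age, and genes called in all were 1529, 655 (5.55% of those tested), 687, 3139 and 6660. The block turned the interaction value of Egr1 to 0.01.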
